A study of Mus musculus with 8 samples.

Results

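The 10 immediate early response genes Fos, Fosb, Jun, Junb, Egr1, Atf3, Ier2, Dusp1, Zfp36 and Nr4a1 were followed through a catalogue of transcription start sites of mouse facial skin. They were taken by exact gene symbol, and all 10 were listed. They had 42 CAGE tag clusters among the 46376 clusters that carried at least 1 of 16094 symbols. CAGE reads RNA from its capped 5′ end, and a tag cluster is a stretch of genome where such ends pile up. The libraries came from 8 mice of the C57BL/6 strain, whose facial skin was taken at postnatal day 28. Lesional skin was taken from 4 mice with floxed Ikk2 (Ikk2FL/FL) and a Cre transgene, and non-lesional skin from 4 mice whose genotype is given as Control. Ikk2 is a kinase that activates NF-κB. The transgene is spelled Nectin-cre on the samples but Nestin-cre for the series, and no label says which alleles the control mice carried. Lesional skin and the named genotype change together in this design. Skin is a mixed tissue. Of 22 markers of keratinocytes, fibroblasts, endothelium, immune cells, muscle and melanocytes, 21 had a cluster under the symbol searched. The other, the macrophage gene Adgre1, is listed under its older symbol Emr1. The catalogue therefore does not say which cells used a start site.

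The table has 8 columns of values whose names match no title or description of a mouse. Levels of these genes, library depth and the contrast of lesional with control skin were therefore not computed. What follows describes where the start sites lay, how wide they were, what lay beside them and which letters the promoters hold. A listed cluster does not say which group it came from, and every share below describes 1 catalogue without replicates.

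Immediate early genes are transcribed within minutes of a stimulus, without the need for new protein. Growth factors, stress, wounding and cytokines reach them through MAP kinases, the serum response factor with its ternary complex partners, and CREB. In skin they answer to injury, ultraviolet light and the handling of tissue, and most of their mRNAs are short-lived. Fos, Fosb, Jun and Junb encode leucine zipper proteins that pair to form the AP-1 transcription factor, which in epidermis helps to control differentiation genes. Atf3 encodes a related leucine zipper protein induced by stress. Egr1 encodes a zinc finger factor, Nr4a1 an orphan nuclear receptor and Ier2 a small early response protein. Dusp1 and Zfp36 act as brakes: the first encodes a phosphatase that switches off MAP kinases, the second an RNA-binding protein, tristetraprolin, that speeds the decay of cytokine mRNAs.

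The letters before the start of 5 of these genes are shown, chosen after the matches were seen: Fos for its TATA box, Dusp1 for a full cAMP response element, Zfp36 for a CArG box, Nr4a1 for the most cores of that element and Junb as the gene with the most clusters. The sequences are RefSeq's on GRCm38.p6, matched by symbol, and each line gives the 150 bases before the annotated start, 5′ to 3′ on the strand of the gene. Capitals mark the TATA box (TATAAA), the core of the cAMP response element (TGACG, or CGTCA when read from the other strand), the full element (TGACGTCA) and the CArG box, the core of a serum response element. The deposited clusters are on mm9 and were not placed on these sequences. The windows are chr12:85473740-85473889 on the plus strand for Fos and chr8:84978749-84978898 on the minus strand for Junb. They are chr17:26508473-26508622 on the minus strand for Dusp1, chr7:28379229-28379378 on the minus strand for Zfp36 and chr15:101266696-101266845 on the plus strand for Nr4a1.
Fos: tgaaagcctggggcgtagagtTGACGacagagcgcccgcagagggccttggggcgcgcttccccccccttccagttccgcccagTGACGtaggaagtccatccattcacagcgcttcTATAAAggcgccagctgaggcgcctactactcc
Junb: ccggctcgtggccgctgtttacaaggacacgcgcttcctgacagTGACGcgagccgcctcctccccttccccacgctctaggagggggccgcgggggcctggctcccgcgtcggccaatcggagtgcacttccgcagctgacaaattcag
Dusp1: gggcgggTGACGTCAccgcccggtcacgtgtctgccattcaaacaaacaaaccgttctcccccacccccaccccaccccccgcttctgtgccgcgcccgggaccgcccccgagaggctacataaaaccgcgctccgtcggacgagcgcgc
Zfp36: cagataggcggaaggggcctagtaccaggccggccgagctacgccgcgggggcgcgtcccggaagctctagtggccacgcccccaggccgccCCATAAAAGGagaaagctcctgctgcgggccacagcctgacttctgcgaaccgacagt
Nr4a1: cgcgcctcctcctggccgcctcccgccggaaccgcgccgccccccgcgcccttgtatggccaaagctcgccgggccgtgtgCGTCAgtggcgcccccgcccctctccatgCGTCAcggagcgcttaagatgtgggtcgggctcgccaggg

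The number of clusters varied among the genes, from 1 to 12, with a median of 3 against a median of 2 over all genes with a cluster. Junb had the most of the 10, at 12 clusters, a number that 96.9% of all genes fell short of. Egr1 followed with 9, Fos with 6 and Jun with 4. Ier2 and Zfp36 had 3 each and Nr4a1 had 2. Fosb, Atf3 and Dusp1 had a single cluster, so 3 of 10 (30.0%) were single, against 45.7% of all genes. The 2 members of the Fos family thus differed, with 6 clusters for Fos and 1 for Fosb, and so did the Jun family, with 4 for Jun and 12 for Junb. No cluster of these genes had been given to a second gene.

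Most of these clusters were narrow. The median span, taken as end minus start, was 6 bp over the 42 clusters and 11 bp over the gene-to-cluster rows of all genes. Spans under 10 bp made up 26 of the 42 (61.9%), against 48.4% of those of all genes, and 13 of the 42 were only 2 bp wide (31.0%, against 21.3%). The narrow clusters were unevenly spread. Junb alone gave 11 of the 26, so the gap to all genes in spans under 10 bp leans heavily on 1 gene. Egr1 had 6 and Fos 5, while Jun, Ier2, Zfp36 and Nr4a1 had 1 each. Junb was thus the gene with the most clusters and yet had 1 cluster of at least 10 bp, as did Fos. No measure of level was set beside these spans.

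**Figure D1:**
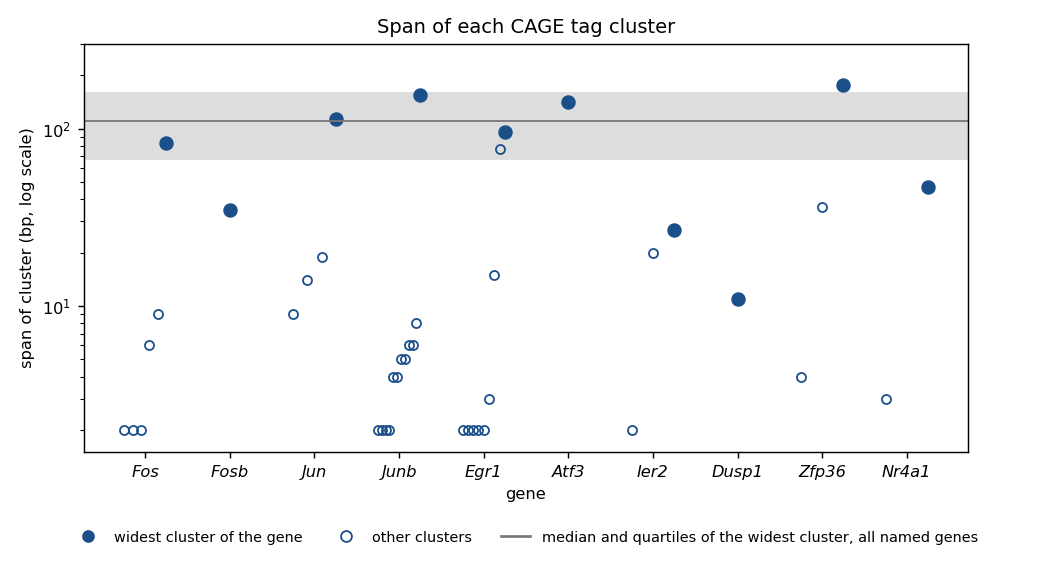
Span of each CAGE tag cluster in bp (log scale) for the 10 immediate early genes. Filled points are the widest cluster of a gene and open points its other clusters, and the line and band give the median of 110 bp and the quartiles of 67 and 159 bp of the widest cluster over all genes. The widest clusters of Dusp1, Ier2, Fosb and Nr4a1 lie below the band, and that of Zfp36 lies above it.

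The widest cluster of each gene ran from 11 bp for Dusp1 to 176 bp for Zfp36, with a median of 89.5 bp against 110 bp over all genes. Among the AP-1 genes, Junb had the widest, 154 bp on the minus strand of chromosome 8 from 87502519 to 87502673 (mm9 here and in the other cluster positions). Jun had one of 113 bp on the minus strand of chromosome 4 from 94718815 to 94718928. That of Fos, 83 bp wide, lay between 86814817 and 86814900 on chromosome 12, plus strand. The only cluster of Fosb was narrower, 35 bp on the minus strand of chromosome 7 from 19895360 to 19895395. Atf3 had a single cluster of 141 bp on the minus strand of chromosome 1, from 193007088 to 193007229. So 3 of these 5 leucine zipper genes, Junb, Atf3 and Jun, had a widest cluster above the median of all genes, and Fos and Fosb lay below it.

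Of the other regulators, Egr1 had a widest cluster of 96 bp between 35020976 and 35021072 on chromosome 18, plus strand. A second Egr1 cluster of 77 bp ran from 35020851 to 35020928, ending 48 bp before the first began. Nr4a1 had its widest cluster, of 47 bp, between 101097271 and 101097318 on chromosome 15, plus strand. The widest cluster of Ier2 spanned 27 bp on the minus strand of chromosome 8 from 87186496 to 87186523. Another Ier2 cluster of 20 bp lay at 87186734 to 87186754, so the widest was set by a margin of 7 bp. Ier2 and Junb share chromosome 8 and its minus strand, with their widest clusters 316150 bp apart.

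The 2 feedback genes stood at opposite ends in the span of the widest cluster. Dusp1 had 1 cluster of 11 bp on the minus strand of chromosome 17, from 26645413 to 26645424, and 9.3% of all genes had a narrower widest cluster. Zfp36 had a cluster of 176 bp on the minus strand of chromosome 7 from 29163351 to 29163527, and 81.9% of all genes had a narrower one. The remaining Zfp36 clusters, of 36 bp from 29164242 to 29164278 and of 4 bp from 29164293 to 29164297, lay upstream of it. The offset was 751 bp for the first and 770 bp for the second, measured here and below between 5′ ends in the direction of transcription. The widest cluster of Zfp36 was therefore also its most downstream one, and whether it marks the main start of the gene was not tested.

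**Figure D2:**
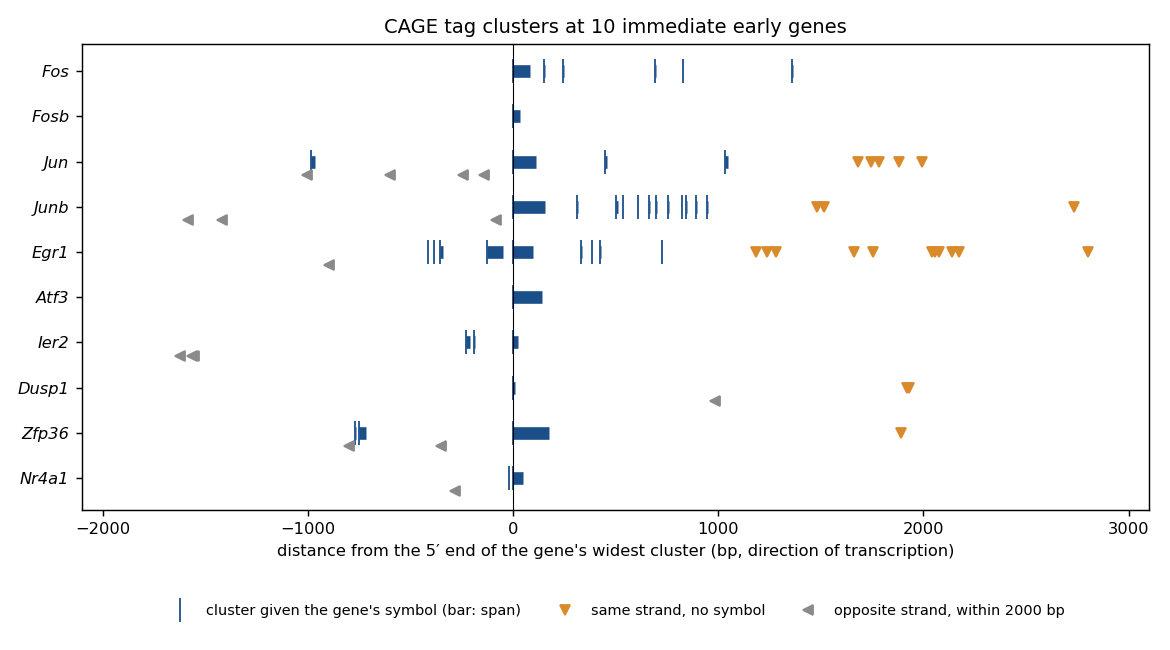
Position of the clusters of 10 immediate early genes, as distance in bp from the 5′ end of the gene's widest cluster in the direction of transcription. Blue ticks with bars are clusters given the gene's symbol, orange triangles are clusters on the same strand with no symbol, and grey arrows are clusters on the opposite strand within 2000 bp. The 11 other clusters of Junb all lie downstream of the widest one, while the 2 others of Zfp36 and of Ier2 lie upstream.

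Of the 32 clusters that were not the widest of their gene, 22 lay downstream of it (68.8%) and 10 upstream. Over all genes, 60.6% of such clusters on the strand of the widest one lay downstream. The median distance from the widest cluster was 572.5 bp for the immediate early genes and 343 bp for all genes, and 30 of the 32 (93.8%) lay within 1000 bp, against 75.8%. Junb alone supplied 11 of the 32 clusters and 11 of the 22 downstream ones, so these shares depend heavily on 1 gene. The direction differed among the members. All 11 further clusters of Junb lay downstream, between 313 and 944 bp, and the 11 had spans of 2 to 8 bp. All 5 of Fos also lay downstream, at 152, 242, 693, 829 and 1359 bp, with spans of 2 to 9 bp. Egr1 had 4 on each side, from 416 bp upstream to 724 bp downstream. Jun had 1 cluster of 19 bp lying 983 bp upstream, and clusters of 9 and 14 bp lying 447 and 1032 bp downstream. Those of Ier2 lay 188 and 231 bp upstream, and that of Nr4a1 lay 21 bp upstream. From first to last 5′ end, the clusters covered 2015 bp for Jun, 1359 bp for Fos, 1140 bp for Egr1 and 944 bp for Junb, against 21 bp for Nr4a1. For these 5 genes the distance was shorter than the length of the gene in RefSeq, which is 3187 bp for Jun, 3385 bp for Fos, 3750 bp for Egr1, 1840 bp for Junb and 20894 bp for Nr4a1. Whether a downstream cluster is a start site of its own was not tested.

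Further clusters without a symbol lay on the same strand. Within 3000 bp downstream of the widest cluster, 44 further clusters lay on the same strand as the 10 genes, and 22 of them carried the gene's own symbol while 22 carried no symbol. Egr1 had 11 clusters without a symbol, from 1186 to 2804 bp downstream and 2 to 7 bp wide. Jun had 5, from 1682 to 1992 bp downstream, of which the widest spanned 36 bp. Junb had 3, from 1484 to 2736 bp downstream. Dusp1 had 2, at 1920 and 1928 bp, and Zfp36 had 1 of 42 bp at 1891 bp. Of the 22, 21 were nearer to the widest cluster than the RefSeq length of the gene, and 20 were nearer than that to the most upstream cluster. Beyond it lay the cluster 2736 bp downstream of that of Junb and, from the most upstream cluster, that of Zfp36. None was placed in an exon or gene model. No such cluster was found for Fos, Fosb, Atf3, Ier2 or Nr4a1.

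The share of downstream clusters that carried a symbol changed with distance. Within 500 bp the gene's own symbol was on 7 of 7 downstream clusters of the immediate early genes and on 99.0% of those of all genes. From 501 to 1000 bp it was on 13 of 13, against 93.7%. From 1001 to 1500 bp it was on 2 of 6, against 49.7%, but measured from the most upstream cluster it was on 3 of 4, against 72.2%, so the order of the 2 shares turned. From 1501 to 2000 bp it was on 0 of 11, against 30.8%, and from 2001 to 3000 bp on 0 of 7, against 22.4%. Measured from the most upstream cluster these were 0 of 6, against 46.1%, and 1 of 15, against 31.0%. The share thus fell past 1000 bp both in the immediate early genes and in all genes. The 12 clusters of Junb and 9 of Egr1 are only those with the gene's own symbol. Whether the clusters without a symbol farther along the same strand belong to these genes was not tested. The last 3 counts of the immediate early genes are small, 6, 11 and 7 clusters, and the clusters come from few genes. The rule by which symbols were given is not stated in the sources used here.

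**Figure D3:**
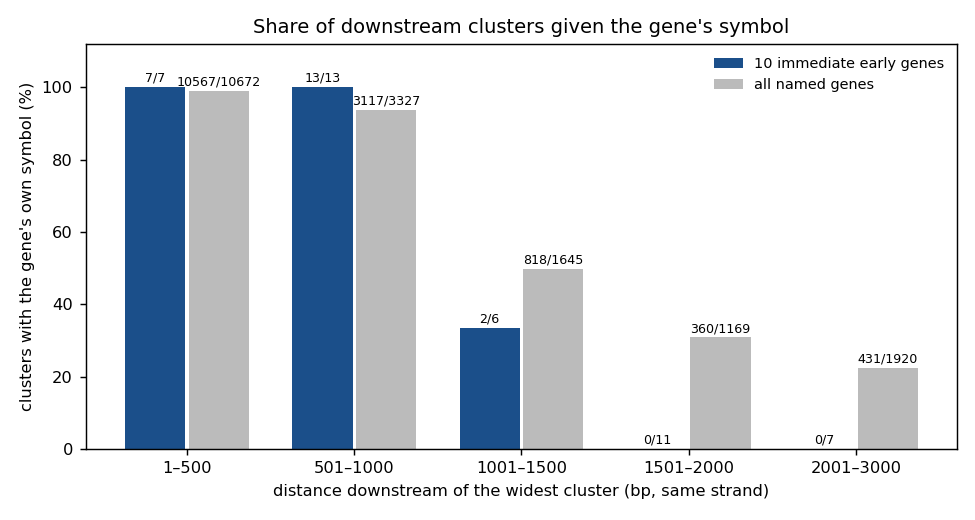
Share of same-strand clusters that carry the gene's own symbol, in percent, by distance in bp downstream of the widest cluster, for the 10 immediate early genes (blue) and all genes with a cluster (grey). Counts above the bars are clusters with the symbol over all clusters in the bin. The blue share is 13 of 13 at 501 to 1000 bp and 0 of 11 at 1501 to 2000 bp.

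On the opposite strand, a cluster within 1000 bp upstream of the widest one was found for 5 of the 10 genes, Jun, Junb, Egr1, Zfp36 and Nr4a1, against 24.3% of all genes. Such a cluster without a symbol was found for 4 of the 10 genes (40.0%), all of the 5 but Jun, against 10.1% of all genes. The nearest lay 81 bp upstream of Junb and was 124 bp wide, between 87502754 and 87502878 on chromosome 8, plus strand. That of Jun lay 140 bp upstream, spanned 2 bp and carried the symbol BC042782. A BC042782 cluster of 161 bp followed 245 bp upstream of Jun. The nearest clusters of Nr4a1, Zfp36 and Egr1 lay 281, 350 and 896 bp upstream, with spans of 2, 3 and 2 bp. For Zfp36 a wider one of 76 bp lay 800 bp upstream, which is 30 bp beyond its most upstream named cluster. Ier2 had its nearest opposite cluster 1555 bp upstream, carrying the symbol Gm2529. Fosb had it 8980 bp upstream, and Fos, Atf3 and Dusp1 had none within 20000 bp upstream. Upstream of Fos on its own strand, the nearest cluster carried no symbol and lay 6170 bp away.

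The relatives of these genes were almost all listed. They comprise the leucine zipper genes Fosl1, Fosl2, Jund, Batf, Batf3, Jdp2 and Atf4 and the Egr, Ier, Dusp, Zfp36 and Nr4a relatives. Of these 22 genes, 21 had a cluster, with a median of 3 clusters for each listed gene, the same as that of the 10 genes. Egr4 had none among the clusters analysed here. Fosl2 had 16 clusters and Fosl1 had 5, the widest being 83 and 43 bp. Jund, the remaining Jun gene, had 10 clusters and a widest of 197 bp. Egr3 had 15 and Egr2 had 11, with widest clusters of 89 and 178 bp. Zfp36l2 had 14 and a widest of 256 bp, whereas Zfp36l1 had a single cluster of 162 bp. Among the phosphatase genes, Dusp6 had 5 clusters and Dusp5 and Dusp2 had 3 each, while Dusp4 and Dusp10 had 1 each. The widest cluster was under 10 bp for 4 relatives, Nr4a2 and Batf at 4 bp, Batf3 at 5 bp and Dusp2 at 9 bp. Nr4a3, by contrast, had a single cluster of 188 bp.

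Other early response genes had a cluster in 34 of 34 cases, with a median of 2 clusters and a median widest span of 127.5 bp. The most clusters were found for the growth regulator Myc at 15, the pseudokinase gene Trib1 at 14, the epidermal factor Klf4 at 13, the serum-induced kinase Sgk1 at 12 and the survival gene Mcl1 at 7, and 12 of the 34 had a single cluster. Csrnp1 and Arc had 1 cluster each, of 2 and 7 bp. The 18 upstream regulators described here had a median of 3.5 clusters, and at least 1 each. Their narrowest widest cluster was 71 bp, for Mkl2, so the regulators held none under 10 bp. Srf, the gene of serum response factor, had 8 clusters with a widest of 134 bp. Creb1 had 2 with a widest of 204 bp, and the MAP kinase gene Mapk3 had 5. The median widest cluster was 89.5 bp for the 10 immediate early genes and 137 bp for the regulators, and the ranges, 11 to 176 bp and 71 to 219 bp, overlapped.

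**Figure D4:**
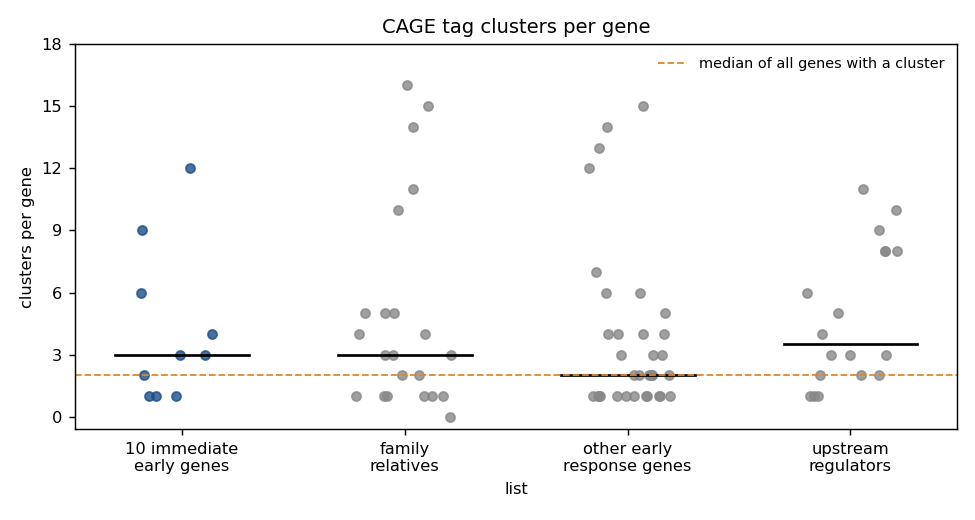
CAGE tag clusters per gene for the 10 immediate early genes, their family relatives, other early response genes and upstream regulators. Each point is a gene, black bars are medians (3, 3, 2 and 3.5) and the dashed line is the median of 2 over all genes with a cluster. Points of the 4 lists overlap over most of their range.

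RefSeq promoter windows, which hold 250 bases before and 50 from the gene start on, were present for 8 of the 10 genes, all but Egr1 and Ier2. Motifs were read on both strands, and the share beside each count is that of 8329 genes with a cluster and a single window. TATAAA was in the windows of Fos and Junb, against 8.86% of those genes. In Fos it took positions -33 to -28, as printed above, counting the base before the start as -1. In Junb it took positions 1 to 6, that is, from the annotated start itself, so it is not in the printed stretch. A TATAAA on the strand of the gene that began between -45 and -20 was held by Fos alone of the 8 and by 224 of the 8329 genes (2.69%). The median widest cluster of those 224 genes was 51 bp (quartiles 11 and 111.25), against 116 bp for the other 8105 (quartiles 77 and 162). TATA promoters are known for focused starts, and Fos, at 83 bp, lay between these medians. Dusp1 had the narrowest widest cluster of the 10 without holding the exact letters TATAAA. Only that exact string was searched, so near variants, such as cataaaa in the printed Dusp1 stretch, were not counted.

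The core TGACG of the cAMP response element, which CREB and ATF factors bind, was in 6 of the 8 windows, those of Fos, Fosb, Junb, Atf3, Dusp1 and Nr4a1, against 30.7% of the 8329 genes. On the strand of the gene alone it was in 4 of 8, Fos, Fosb, Junb and Dusp1, against 18.9%. Nr4a1 held 4 cores, all on the opposite strand, and in the printed stretch they are the CGTCA at -69 to -65 and at -40 to -36. Fos held cores at -129 to -125 and at -66 to -62. The full TGACGTCA was in Dusp1 only of the 8, at -143 to -136 (3.27% of genes), a palindrome that holds a core on each strand. The CArG box was in Zfp36 only, at -58 to -49 (1.45% of genes), where its first base is also the last of a GC box. The AP-1 site TGANTCA was in none of the 8 (5.46% of genes). Variant sites were not counted: the Jun window, for example, holds TGACATCA, which matches neither TGANTCA nor TGACG. The GC box GGGCGG was in 7 of 8, all but Junb, against 63.5% of genes, but on the strand of the gene alone it was in 3 of 8, against 42.0%. The windows of Fos and Jun were below the median GC content of 60.7% over those genes, at 58.7% and 60.0%, and the other 6 were above it, up to 72.3% for Nr4a1. The windows end 250 bases before the start, so a CArG box or other site farther upstream was not read, and Egr1 and Ier2 had no window. A match describes letters in the reference. Neither a match nor its absence says whether a factor was bound.

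**Figure D5:**
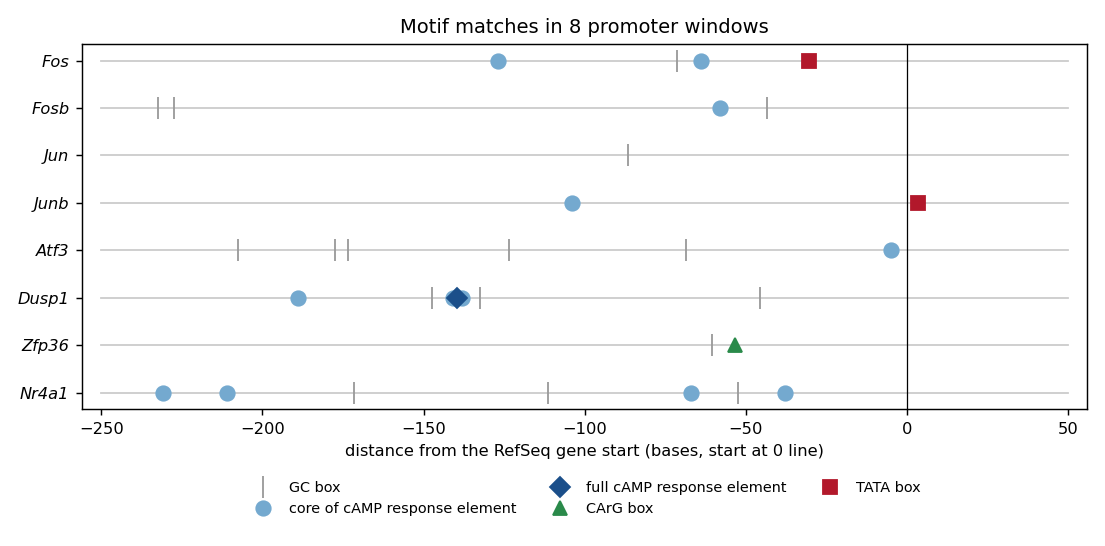
Motif matches on either strand in the RefSeq promoter windows of 8 immediate early genes, by distance in bases from the annotated gene start. Symbols mark GC boxes, the core and the full cAMP response element, the CArG box and the TATA box. The TATA box lies at -33 to -28 in Fos and at 1 to 6 in Junb, and the full cAMP response element is found in Dusp1 alone of the 8.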

How the data were processed

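CAGE libraries were made from total RNA of facial skin, per the labels' protocols. The submitters' processing notes name BWA, HISAT2 and the build mm9. The deposited table pairs each cluster's position and strand with a gene symbol, the only values used (unit: other), and how the authors joined tags into clusters is not given in the sources used here. Its 8 further columns match no label and were not used, so the planned tests between groups were not run, no depth is given and replicates were not compared. The 85623 rows hold 84475 distinct clusters. The 5′ end of a cluster was its start on the plus strand and its end on the minus strand, as deposited, with an uncertainty of 1 bp because the counting base is not stated. Distances follow transcription. The widest cluster was the reference, and the most upstream one was the alternative. RefSeq tables of GRCm38.p6 gave promoter letters and gene lengths, by symbol. Proteins were not analysed here, and 1 gene of the list of upstream regulators is not reported here. The 10 genes and all lists were chosen with earlier results of these data known, so no list was tested. The rule for named genes was to name the 10 genes, and of other lists at most 5 with the most clusters, the widest cluster of relatives and those with none; Csrnp1, Arc, Mkl2, Srf, Creb1, Mapk3 and the relatives were also named after their values were seen. Neighbour windows, the TGACG core and the TATAAA window were also set once the table had been read. Motif and distance steps were tested on simulated data. Python 3.11.15, pandas 2.3.3 and numpy 2.4.6 were used.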

Additional observations from a re-analysis of the deposited data

How the results depend on the processing

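No paired analysis was possible because no label ties a column of values to a mouse, and the alternatives planned for the comparison of groups were not run for the same reason. Counting only clusters of at least 10 bp left 16 of the 42 clusters of the 10 genes, and a minimum of 20 bp left 12, with none for Dusp1; Junb and Fos then had 1 each. Counting table rows, or leaving out clusters given to more than 1 gene, changed none of the 10 counts. With the minimum of 10 bp the median span was 41.5 bp in place of 6. With the most upstream cluster as reference the median distance was 696 bp in place of 572.5. Alternatives for spans, naming, neighbours and the TATAAA window were chosen after seeing the data. TATAAA was in 1 of 8 windows with only the 150 bases before the start (5.16% of genes) and in 2 with the whole window (8.86% of genes). On the gene's strand alone the GC box was in 3 of 8 windows in place of 7, against 42.0% of genes in place of 63.5%, so the order turned. With the most upstream reference, 21 downstream clusters had no symbol in place of 22 (from 1001 to 1500 bp, 3 of 4 carried the gene's symbol in place of 2 of 6), and 5 genes had an opposite-strand cluster upstream, as with the widest (21.4% of all genes). Windows of 500 and 2000 bp gave 4 and 6 genes (22.7% and 26.3% of all genes).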
